A study of Mus musculus with 10 samples.

Results

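Cohesin is the ring-shaped protein complex that holds sister chromatids together, and 9 genes that encode its subunits were followed in mouse fetal female germ cells. The members were taken by name from the deposited tables: Rec8, Rad21l, Smc1b and Stag3, the 4 meiotic subunits, and Rad21, Smc1a, Smc3, Stag1 and Stag2, the 5 general subunits. They are 9 of the 55536 genes in the count table, and all 9 passed the filter on low counts that left 20317 genes for testing. Bulk RNA sequencing was done on 10 libraries of female germ cells at E14.5, sorted by fluorescence for an Oct4-EGFP reporter transgene for which the mated parents were homozygous. The libraries came from Taf4b-deficient fetuses, described in the labels as infertile (n = 4), Taf4b-heterozygous fetuses (n = 4) and Taf4b-wildtype fetuses (n = 2). The labels give the strain C57BL/6 for all of them, no treatment, and matings between parents heterozygous for the Taf4b-deficiency mutation. The reporter is carried by every library, controls included, and the deficiency is not restricted by the labels to any cell type. Taf4b encodes a germ cell-enriched subunit of TFIID, the complex that recognises core promoters. The heterozygous and wildtype libraries together are called fertile below (n = 6). Nothing in the labels says whether a library is 1 fetus or a pool, so every p-value below reflects only how these libraries scatter, which may be technical.

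A cohesin ring has a pair of SMC (structural maintenance of chromosomes) proteins, SMC3 with SMC1A or SMC1B, which are closed by a kleisin subunit and bound by a STAG subunit. In mitotic cells the kleisin is RAD21. Germ cells entering meiosis add REC8 and RAD21L as kleisins, SMC1B in place of SMC1A, and STAG3 in place of STAG1 or STAG2, and these rings form the base of the chromosome axis on which homologous chromosomes pair. Female mouse germ cells begin meiosis in the fetal ovary around the age sampled here, and do not all begin at once.

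Total counts ran from 28949924 to 44166320 reads per library. Taf4b itself was at 60.8 ± 3.71 CPM (counts scaled to library size, with TMM factors, SD, n = 4) in deficient libraries, 199 ± 40.3 (n = 4) in heterozygous and 180 ± 38.7 (n = 2) in wildtype libraries, so no deficient library reached a fertile one, and reads from the gene were still counted in the deficient ones. All 8 germ cell markers were detected in each library, with a summed TPM (a level scaled to transcript length and to the library's total) of 4470 to 5620. Dazl, a germ cell RNA-binding protein, was at 1410 to 2000 TPM, whereas summed TPM was at most 25.0 for 8 supporting cell markers, 5.6 for 6 stromal markers, 30.2 for 7 macrophage markers and 84.0 for 6 red blood cell markers. The 5 endothelial markers summed to 35.5 to 182 TPM, nearly all of it Pecam1, a surface protein that germ cells also carry, with Cdh5 at no more than 0.0576 TPM and listed at 0 in 2 libraries. The labels give 3 litter dates: January 29 (deficient 1 and 2, heterozygous 4, wildtype 1), March 1 (deficient 3, wildtype 2) and March 7 (deficient 4, heterozygous 1 to 3). Deficient 2 and 4 and heterozygous 3 stood apart with 87.4 to 454 CPM of Gm23935, an rRNA-like gene that was at 4146 to 5068 CPM in the other 7 libraries.

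A meiotic subunit was already the most abundant form in each class in at least 8 of 10 libraries. Rad21l, the other meiotic kleisin beside Rec8, did not exceed Rad21 in any library. Ordered by mean TPM over 10 libraries, Stag3 was highest at 433 ± 134 (SD, n = 10), followed by Smc1b at 268 ± 97.4, Rec8 at 195 ± 56.3, Smc3 at 185 ± 18.1, Stag1 at 87.6 ± 12.0, Smc1a at 81.6 ± 12.3, Rad21 at 72.6 ± 38.3, Stag2 at 16.2 ± 3.50 and Rad21l at 8.67 ± 8.82. Stag3 exceeded Smc1b in 10 of 10 libraries, and Smc3 exceeded Stag1 in 10 of 10. The other neighbours changed places between libraries. Rec8 exceeded Smc3 in 4 of 10, Stag1 exceeded Smc1a in 6 of 10 and Smc1a exceeded Rad21 in 6 of 10, whereas Rad21 exceeded Stag2 in 10 of 10. Smc1b exceeded Rec8 in 8 of 10 libraries, and Stag2 exceeded Rad21l in 8 of 10. Stag3 had a higher mean TPM than 98.3% of the tested genes, and Rad21l than 52.2%.

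Transcript sums by class differed as well. Over 10 libraries the STAG genes summed to 537 ± 137 TPM (SD), the SMC1 genes to 349 ± 90.1 TPM and the kleisins to 276 ± 51.8 TPM, beside 185 ± 18.1 TPM for Smc3, the only SMC3 gene. Smc3 was the steadiest member, with a coefficient of variation of CPM of 10.4% over all libraries, against a median of 19.4% over the 10881 genes with a mean of at least 5 CPM. Rad21l and Rad21 were the most variable, at 96.7% and 55.7%. These are levels of RNA and not of protein, and in bulk libraries fewer cells of a type and less RNA per cell cannot be told apart.

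**Figure D1:**
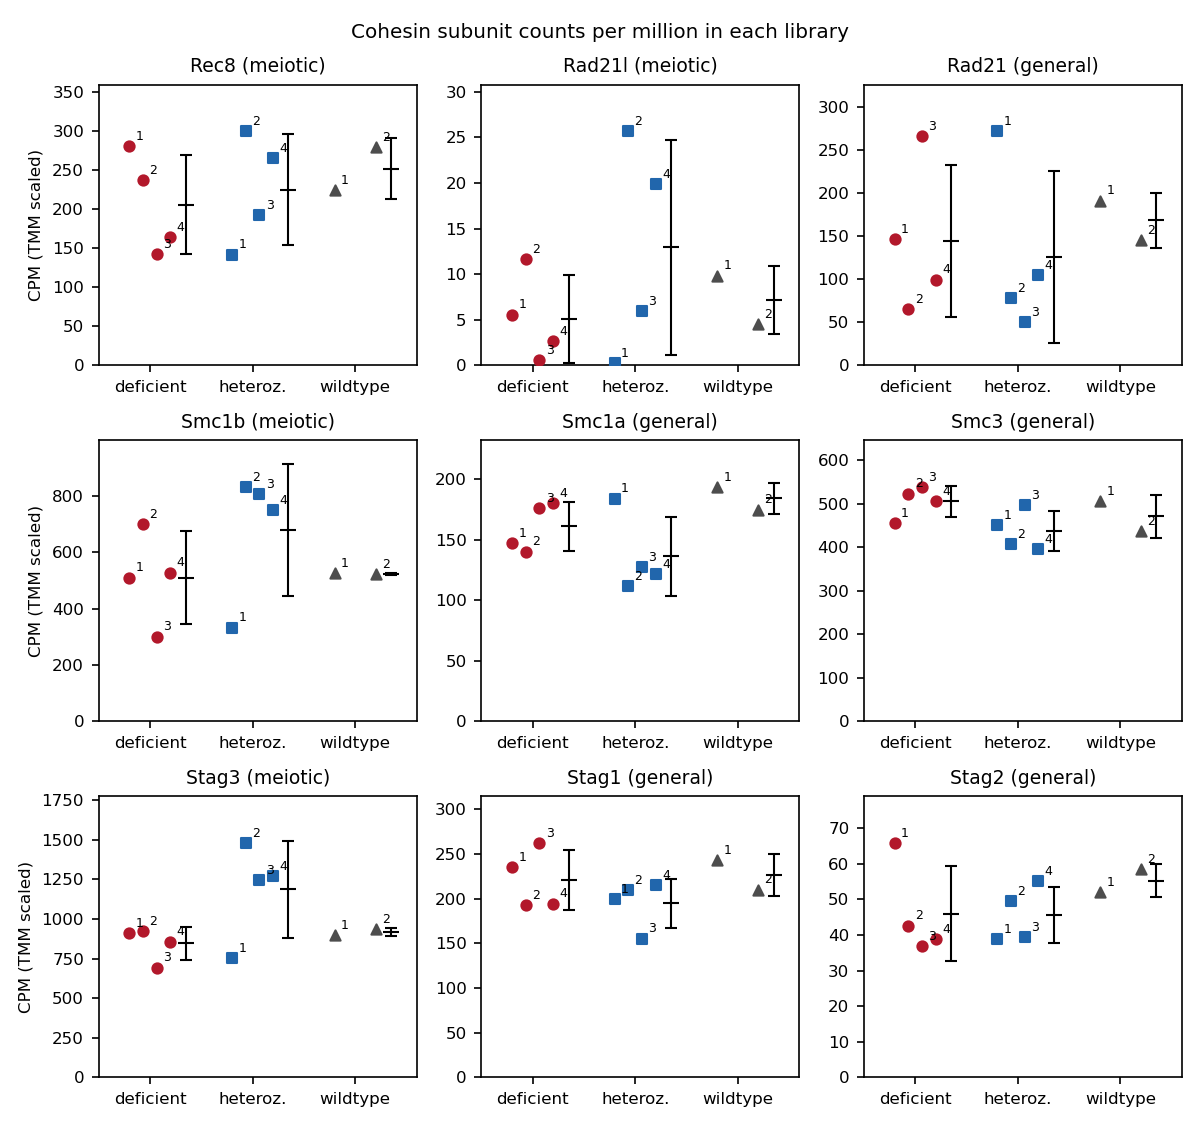
CPM of each cohesin subunit (vertical axes from 0, a scale of its own in each panel) in deficient (circles), heterozygous (squares) and wildtype libraries (triangles), numbered by replicate, with the group mean and SD as a bar. Heterozygous 1 and deficient 3 sit low for Rec8, Rad21l, Smc1b and Stag3 and high for Rad21, and the ranges of the genotypes overlap in every panel.

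Among the kleisins, Rec8 made up most of the RNA and Rad21l little of it. Rec8, whose protein holds sister chromatids together until the meiotic divisions, was at 279.9, 237, 142 and 164 CPM in deficient libraries 1 to 4, at 142, 299, 192 and 265 CPM in heterozygous libraries 1 to 4, with 224 and 279 CPM in wildtype libraries 1 and 2. The lowest values were those of heterozygous 1 and deficient 3, and the ranges of all genotypes overlapped. The gene (ENSMUSG00000002324) lies on chromosome 14 at 55618037-55625395 in GRCm38, on the plus strand.

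Rad21l, a kleisin found only in meiotic cells, varied more than any other member. Its deposited counts were 177, 446, 17 and 101 reads in deficient libraries 1 to 4, 10, 987, 270 and 587 in heterozygous libraries 1 to 4, and 298 and 139 in wildtype libraries. Heterozygous 1, with 10 reads, corresponds to 0.29 CPM, with an exact Poisson 95% interval of 0.14 to 0.535 CPM, and heterozygous 2 to 25.7 CPM (24.1 to 27.3), an 88.1-fold range inside 1 genotype. Deficient 3 was at 0.56 CPM (0.325 to 0.894). These intervals cover counting error only, and those of heterozygous 1 and heterozygous 2 are far apart. Rad21l (ENSMUSG00000074704) lies on chromosome 2 at 151645404-151668533, on the minus strand.

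Rad21, the general kleisin, ran the other way. It was at 147, 65.1, 266 and 99.5 CPM in deficient libraries, 272, 78.0, 49.9 and 105 CPM in heterozygous libraries, and 191 and 146 CPM in wildtype libraries. The highest values were those of heterozygous 1 and deficient 3, where Rec8 and Rad21l were lowest. Of the kleisin TPM in a library, Rec8 accounted for 70.2% on average (46.4% to 84.5%), Rad21 for 26.9% (12.5% to 53.5%) and Rad21l for 2.93% (0.135% to 7.90%). Rec8 exceeded Rad21 in 8 of 10 libraries, the exceptions being deficient 3 and heterozygous 1, where Rec8 made up 47.0% and 46.4%. The mean log2 TPM ratio of Rec8 to Rad21 was 1.55 ± 1.09 (SD, n = 10). Rad21l did not exceed Rad21 in any library, and its highest share, 7.90%, was in heterozygous 2.

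Of the SMC1 forms, Smc1b was the more abundant in 10 of 10 libraries. Smc1b, the meiotic form, was at 511, 701.5, 301 and 528 CPM in deficient libraries, 333, 831, 806 and 751 CPM in heterozygous libraries, and 525 and 522 CPM in wildtype libraries. Heterozygous 2 to 4 lay above all deficient and wildtype libraries, and heterozygous 1 lay near the lowest deficient library. Smc1a, the general form, encoded on the X chromosome, had 147, 140.2, 176 and 180.3 CPM in the deficient, 184, 112, 127 and 122 in the heterozygous, and 193 and 175 in the wildtype libraries. Here heterozygous 2 to 4 were the lowest of all libraries. Smc1b formed 74.6% of the SMC1 TPM on average, from 58.1% in heterozygous 1 to 85.8% in heterozygous 2, a mean log2 ratio to Smc1a of 1.63 ± 0.73 (SD, n = 10).

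Smc3, the partner common to both kinds of ring, differed little between libraries. Deficient libraries had 456.5, 524, 538 and 507 CPM, heterozygous libraries 451, 407, 498 and 397, and wildtype libraries 507 and 437. Of the deficient libraries, 3 of 4 lay above the highest fertile library, by little in the case of deficient 4. From the lowest library to the highest it varied 1.36-fold, less than any other member.

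Stag3, the meiotic STAG subunit, had the highest level of the 9 genes in all libraries. It was at 909.6, 922.5, 693.5 and 857 CPM in deficient libraries, 752.5, 1478, 1247 and 1269 CPM in heterozygous libraries, and 901 and 936 CPM in wildtype libraries. Heterozygous 2 to 4 lay above every other library, whereas heterozygous 1 lay below all but deficient 3. Stag1 had 235, 192.5, 262 and 194 CPM in the deficient, 199, 209, 155 and 215 in the heterozygous, and 242.5 and 209.8 in the wildtype libraries. Stag2, the X-linked form, ran from 36.9 to 65.7 CPM over the 10 libraries. Neither separated the genotypes. Stag3 formed 79.8% of the STAG TPM on average (72.1% to 87.5%), Stag1 17.1% (10.3% to 24.8%) and Stag2 3.11% (2.13% to 4.48%). The mean log2 TPM ratio was 2.26 ± 0.46 for Stag3 to Stag1 and 4.71 ± 0.40 for Stag3 to Stag2 (SD, n = 10), with Stag3 the higher in 10 of 10 libraries in both cases.

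**Figure D2:**
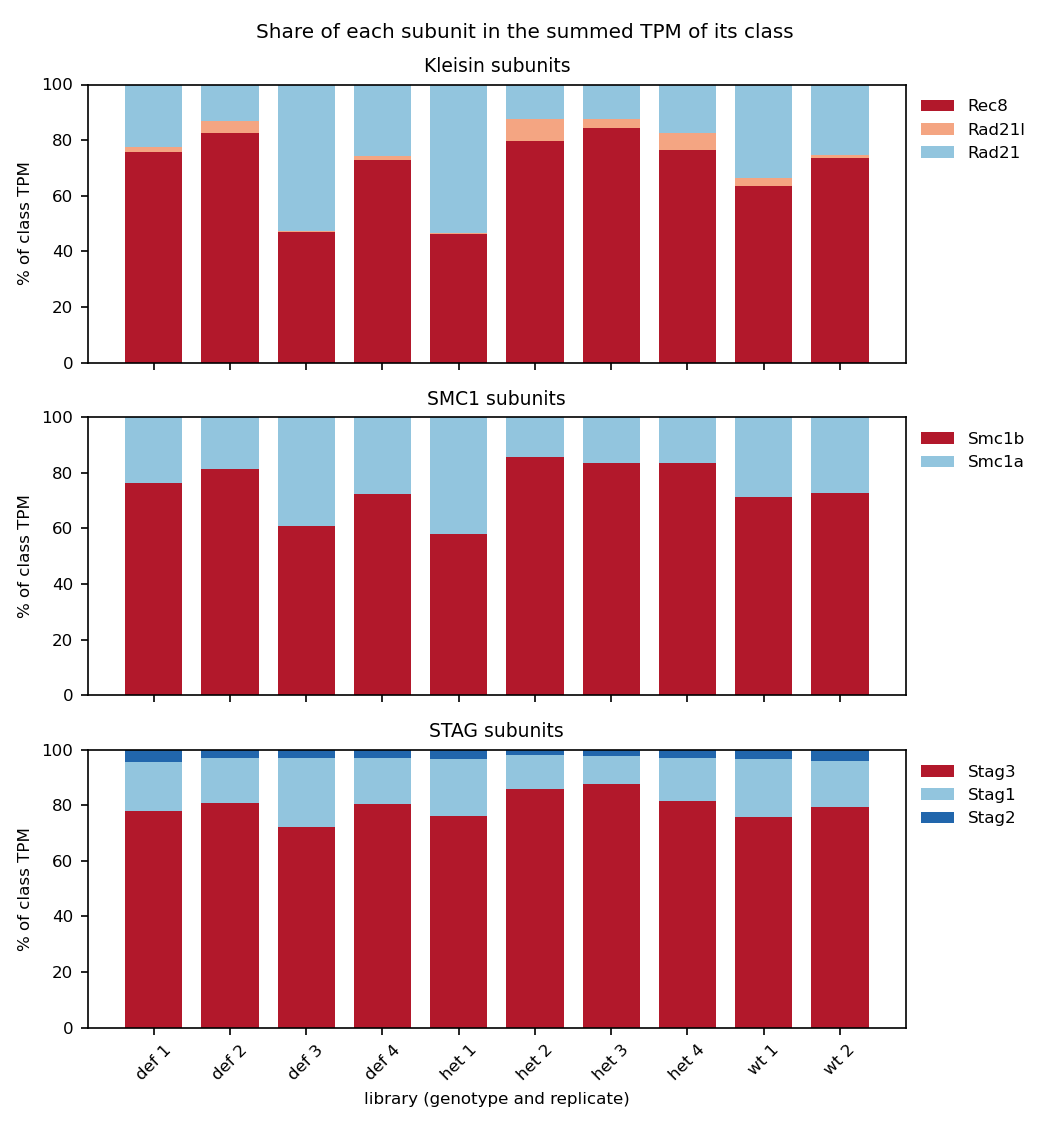
Share of each subunit (vertical axes, percent of the summed TPM of its class) in each of 10 libraries (horizontal axis; def deficient, het heterozygous, wt wildtype), for kleisin, SMC1 and STAG genes from top to bottom, with meiotic forms in red tones and general forms in blue. The meiotic share is lowest for kleisins and SMC1 genes in heterozygous 1 and deficient 3, where Rec8 makes up 46.4% and 47.0% and Smc1b 58.1% and 60.7%.

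The first question of the design, whether Taf4b deficiency goes with other levels of these genes, was tested with edgeR's quasi-likelihood test on the counts over all genes. In this fit no cohesin subunit passed an adjusted p of 0.05 (Benjamini-Hochberg, over all tested genes) in any of 4 comparisons. Taf4b itself passed against heterozygous and fertile libraries (edgeR adjusted p = 0.0118 and 0.0117). It did not pass against wildtype libraries (log2 fold change -1.56, edgeR adjusted p = 0.113), so not passing here does not show equal levels. With litter date as a term its edgeR adjusted p was 0.111 against heterozygous and 0.066 against fertile libraries. Calls among all genes were few as well, at 0.0148% of tested genes for deficient against heterozygous, 0% for deficient against wildtype, 0.00492% for deficient against fertile and 0.00492% for heterozygous against wildtype. Other tools called more: 224 genes with DESeq2 and 3012 with limma voom for deficient against heterozygous, and 480 and 1063 for heterozygous against wildtype. At an unadjusted p under 0.05, 1 of 9 members passed for deficient against heterozygous, beside 11.9% of all genes, and 0 of 9 in the other comparisons, beside 3.66%, 4.31% and 8.3%. CPM ranges did not overlap for 0 of 9 members in each comparison, beside 5.97%, 12.6%, 1.39% and 15.8% of all genes in the same order.

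That 1 member was Stag3. Deficient libraries had 846 ± 105 CPM and heterozygous libraries 1187 ± 307 CPM (SD, n = 4 each), a log2 fold change of -0.49 (SE 0.19, edgeR unadjusted p = 0.0234, adjusted p = 0.383). Without heterozygous 1 the log2 fold change was -0.65 (edgeR adjusted p = 0.0478), in a fit that called 344 genes. With limma voom and sample weights on all libraries it was -0.58 (adjusted p = 0.0205), in a fit that called 3012 of 20317 genes. With litter date as a term it was -0.48 (adjusted p = 0.540). Within litters, Stag3 on January 29 was at 909.6 and 922.5 CPM in the deficient libraries, 1269 in the heterozygous and 901 in the wildtype library. On March 1 Stag3 was at 693.5 CPM in the deficient and 936 CPM in the wildtype library. On March 7 the deficient library, at 857 CPM, lay between heterozygous 1 and the other heterozygous libraries.

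The remaining meiotic subunits had estimates of the same sign with wide errors. For deficient minus heterozygous, the log2 fold change was -0.41 for Smc1b (SE 0.29, edgeR adjusted p = 0.556), -1.33 for Rad21l (SE 1.01, adjusted p = 0.579) and -0.13 for Rec8 (SE 0.26, adjusted p = 0.845). Leaving out 1 library moved Smc1b between -0.64 (without heterozygous 1) and -0.21 (without deficient 3), and Rad21l between -2.14 (without deficient 2) and -0.71 (without heterozygous 2). Without deficient 3, heterozygous 2 or heterozygous 4 the sign of the Rec8 estimate changed, at most to 0.089. The estimates of the general subunits were 0.19 for Rad21, 0.24 for Smc1a, 0.21 for Smc3, 0.18 for Stag1 and 0.01 for Stag2, with edgeR adjusted p from 0.473 to 0.984. The median was -0.45 over the 4 meiotic subunits and 0.19 over the 5 general ones, beside -0.05 over all tested genes, of which 55.1% had an estimate below 0. Leaving out 1 library moved Rad21 between -0.26 (without deficient 3) and 0.90 (without heterozygous 1), and Stag2 between -0.21 (without deficient 1) and 0.15 (without heterozygous 4). With litter date as a term the estimates of Rad21 and Stag2 were below 0, at -0.09 and -0.13. On TPM with limma (pseudocount 0.1) those of Stag1 and Stag2 were, at -0.09 and -0.11.

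The median log2 fold change of deficient minus wildtype was -0.20 over the meiotic subunits (4 of 4 below 0) and -0.19 over the general ones (4 of 5 below 0), beside 0.0046 over all genes. Stag3 was at -0.12 (SE 0.23), with a 95% interval from -0.62 to 0.38, and Smc1b at -0.04 (SE 0.36), from -0.83 to 0.75. Rec8 was at -0.29 (SE 0.32). For heterozygous minus wildtype, Stag3 was at 0.37 (SE 0.23), Smc1b at 0.38 (SE 0.37) and Rad21l at 0.85 (SE 1.27). Rec8, at -0.17 (SE 0.32), and all 5 general subunits were below 0, Smc1a the farthest at -0.43 (SE 0.20, edgeR adjusted p = 0.606). Smc1a passed in that comparison with limma voom and sample weights, at -0.60 (adjusted p = 0.0321), a fit that called 1063 of 20317 genes. These comparisons share libraries, so their estimates are not independent of each other.

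**Figure D3:**
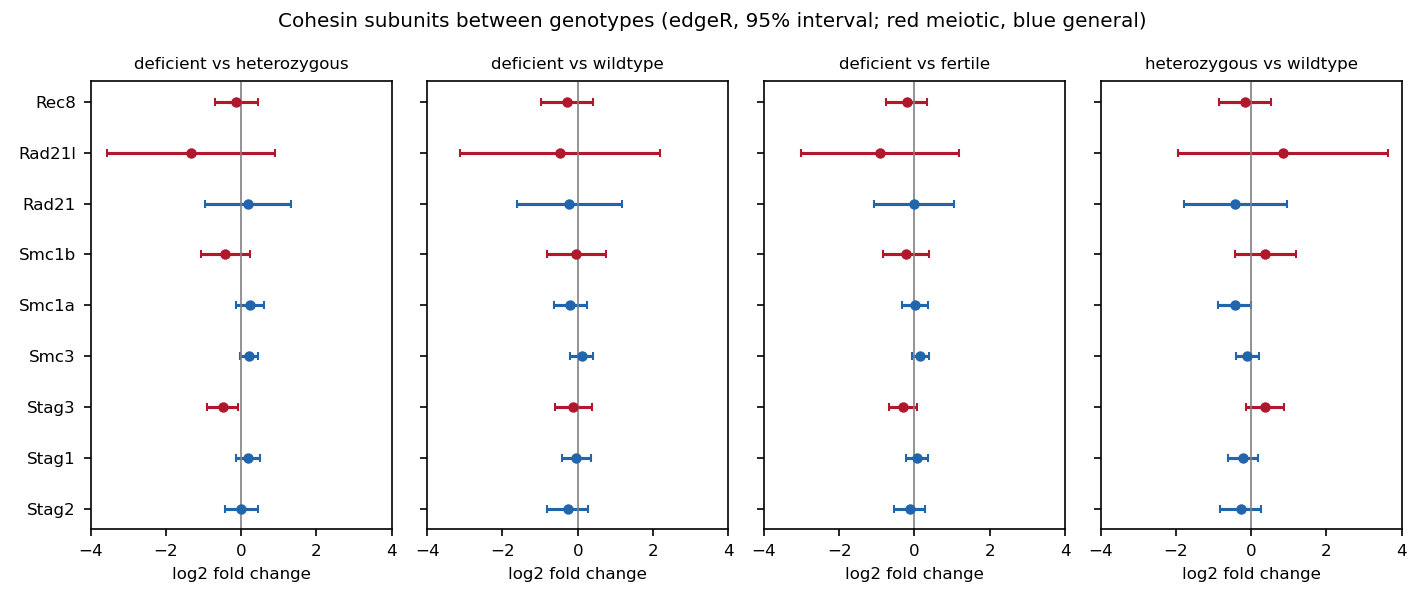
Log2 fold change (horizontal axes, first named group minus second) of each cohesin subunit in 4 comparisons, with 95% intervals from edgeR's quasi-likelihood fit over 10 libraries, meiotic subunits in red and general ones in blue. Only the interval of Stag3 in deficient against heterozygous, -0.90 to -0.08, leaves out 0, and Rad21l has the widest intervals.

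For deficient against fertile, the meiotic estimates were -0.30 for Stag3 (SE 0.17), -0.23 for Smc1b (SE 0.28), -0.91 for Rad21l (SE 0.96) and -0.21 for Rec8 (SE 0.25), with edgeR adjusted p from 0.904 to 0.910. The authors' deposited table of fold changes does not name its contrast. Across 20236 genes its values lay nearest to deficient minus fertile, with a median absolute difference of 0.0482 in log2. In the authors' deposited table Stag3 is at -0.33 (SE 0.22, adjusted p = 0.812), Rad21l at -1.64 (SE 0.98, adjusted p = 0.804), Smc1b at -0.30 and Rec8 at -0.28, and Taf4b at -1.66 (adjusted p = 1.25e-13).

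A ratio of a meiotic to a general subunit inside a library cancels library size. On log2 count ratios, the mean of Stag3 to Stag1 was 1.94 ± 0.38 over deficient libraries and 2.58 ± 0.47 over heterozygous ones (SD, n = 4 each), a difference of -0.64 (two-sided exact permutation p = 0.114). Stag3 to Stag2 differed by -0.44 (exact p = 0.114), Smc1b to Smc1a by -0.65 (exact p = 0.286), Rec8 to Rad21 by -0.42 (exact p = 0.543) and Rad21l to Rad21 by -1.10 (exact p = 0.6). Against fertile libraries the differences were -0.45, -0.24, -0.40, -0.25 and -0.95 in the same order, with exact p from 0.157 to 0.710. None of the 10 tests passed, with Benjamini-Hochberg adjusted p over the 10 of 0.524 to 0.710. Against heterozygous libraries the smallest exact p that 4 against 4 libraries can give is 0.0286. No such test could pass the adjustment by itself, so not passing does not show equal ratios. Without deficient 3 the differences of Rec8 to Rad21 and Rad21l to Rad21 from heterozygous libraries changed sign, to 0.10 and 0.083. Permuting only within litter dates gave exact p of 0.146 to 0.75. Against heterozygous libraries only 12 such arrangements exist, too few for an exact p under 0.05, so those tests could not pass. Without heterozygous 1, Stag3 to Stag1 differed by -0.86 and Stag3 to Stag2 by -0.57, each with an unadjusted exact permutation p = 0.0286, the smallest that 4 against 3 libraries can give. Leaving out 1 library moved Smc1b to Smc1a between -1.12 (without heterozygous 1) and -0.37 (without deficient 3).

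Across libraries the meiotic subunits went together. Over 10 libraries the log2 CPM of Stag3 and Smc1b had a Pearson r of 0.909 (permutation p = 7e-05, adjusted over 11 relations 0.00077) and a Spearman rho of 0.842 (permutation p = 0.00367). Without heterozygous 2 and 4, the 2 libraries farthest from the median of Stag3, r was 0.917. For Smc1b and Rad21l r was 0.902 and rho 0.818 (permutation p = 0.0009 and 0.00568), and r was 0.684 without deficient 3 and heterozygous 1. Stag3 and Rad21l had r = 0.814 and rho = 0.83 (permutation p = 0.00469 and 0.00411), and r = 0.703 without heterozygous 2 and 4. The libraries share litters and genotypes. After centring on genotype means these 3 values of r were 0.936, 0.934 and 0.944, and after centring on litter means 0.908, 0.942 and 0.912.

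Rec8 held to this pattern less firmly with Smc1b and Stag3. Its r was 0.853 with Rad21l, 0.687 with Smc1b and 0.667 with Stag3 (permutation p = 0.00138, 0.0294 and 0.0355; rho 0.709, 0.455 and 0.758 with permutation p = 0.0257, 0.191 and 0.0142). Without heterozygous 1 and deficient 3 these fell to 0.599, 0.131 and 0.351, so the relations of Rec8 with Smc1b and Stag3 rest on those 2 libraries. The relations of Stag3 with Smc1b and Rad21l were checked without another pair, heterozygous 2 and 4, so those checks are not alike. In the 7 libraries high in Gm23935 they were 0.899, 0.886 and 0.79, a subset added after the data were seen. The 3 libraries low in Gm23935 had 237, 164 and 192 CPM of Rec8 with 701.5, 528 and 806 CPM of Smc1b, and the part of that difference in the result was not tested.

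The general counterparts went against the meiotic forms for SMC1. Smc1b and Smc1a had r = -0.796 (permutation p = 0.00575, adjusted 0.0126) and rho = -0.721 (permutation p = 0.0219). Without deficient 3 and heterozygous 1 r was -0.891. Rad21l and Rad21 had r = -0.685 and rho = -0.612 (permutation p = 0.0279 and 0.0663), but r was -0.173 without heterozygous 1 and deficient 3, on which the relation rests. Rec8 and Rad21 had r = -0.425 (permutation p = 0.217, rho -0.37 with permutation p = 0.294), with r = 0.281, of the other sign, without heterozygous 1 and deficient 3, and -0.884 in the 7 libraries high in Gm23935. Stag3 with Stag1 (r = -0.432, rho = -0.297, permutation p = 0.214 and 0.408) and Stag3 with Stag2 (r = 0.32, rho = 0.552, permutation p = 0.358 and 0.105) did not pass.

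**Figure D4:**
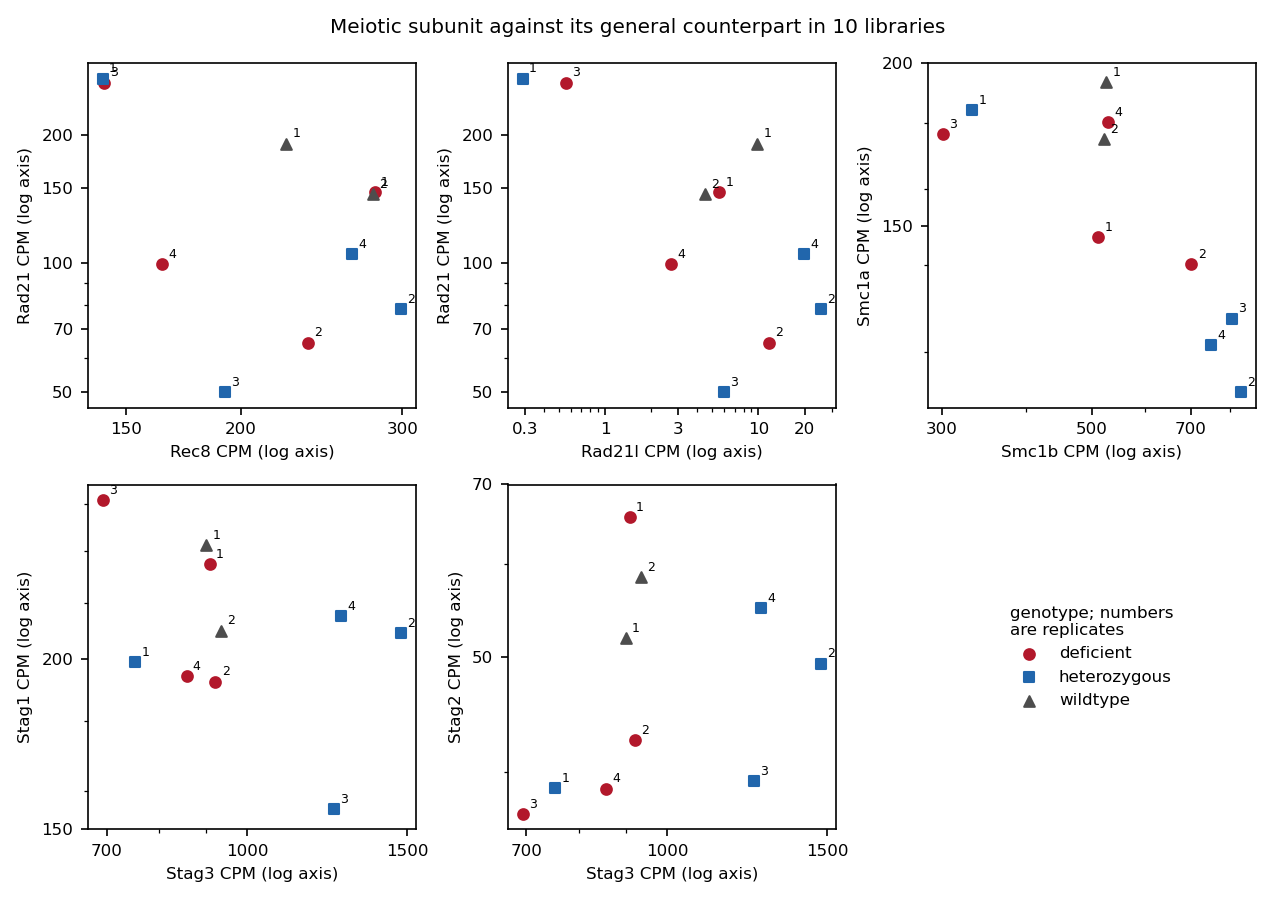
CPM of a meiotic subunit (horizontal axes, log scale) against its general counterpart (vertical axes, log scale) in 10 libraries, with genotype by marker and replicate number beside each point. In the kleisin panels heterozygous 1 and deficient 3 lie at the upper left, apart from the other libraries, and in the panel of Smc1b and Smc1a heterozygous 2 to 4 lie at the lower right.

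**Figure D5:**
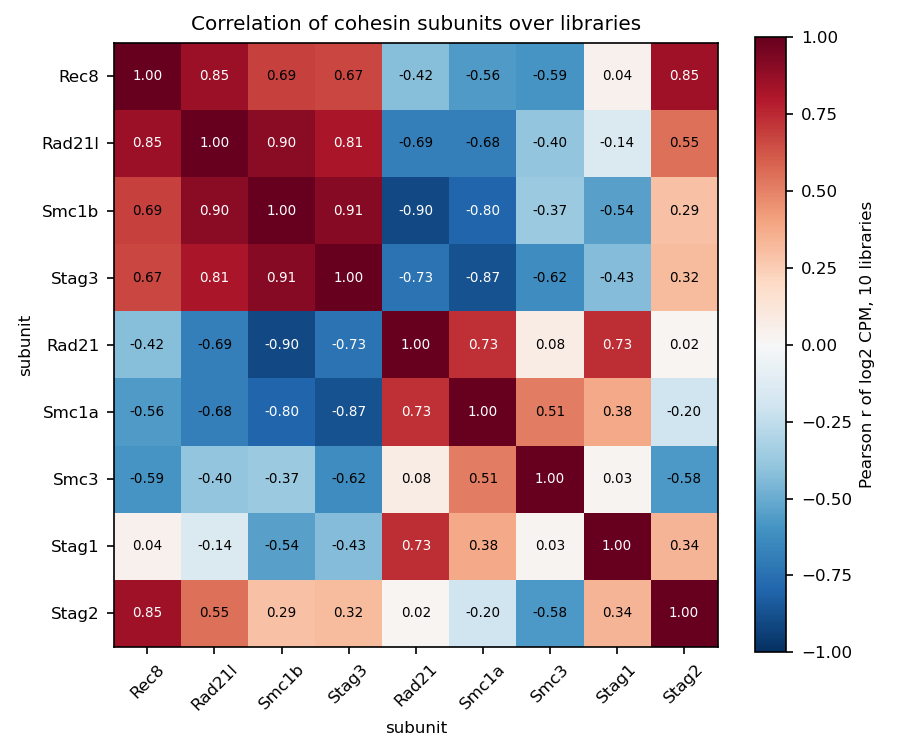
Pearson r of log2 CPM over 10 libraries for each pair of the 9 subunits, as color (scale from -1 to 1) and number, meiotic subunits first. The block of the 4 meiotic subunits runs from 0.667 to 0.909, and their values with Smc1a are below 0.

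The other genes whose level followed a meiotic subunit most closely were named by rank of r over 10 libraries, as a description. The ranking took the 10099 genes with a mean of at least 5 CPM that were left after predicted genes, clone names and pseudogenes were set aside. For Smc1b they were Zcwpw1 (r = 0.996, 194 to 465 CPM), Vamp3 (0.992) and Tsc22d3 (0.992). For Stag3 they were Atf6b (0.991), Hectd3 (0.991) and Nfxl1 (0.982), for Rad21l Cdkl2 (0.989), Timm10b (0.981) and Nmb (0.975), and for Rec8 Rnf144a (0.987) and Aebp1 (0.95).

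Proteins that load, release or protect cohesin did not share the range of the meiotic subunits. Of 18 such genes 17 were tested, and their mean log2 CPM ran only from 6.06 to 6.30 over the libraries, whereas that of the 4 meiotic subunits ran from 5.89 in heterozygous 1 to 8.29 in heterozygous 2, and that of the 5 general subunits from 6.83 to 7.57. None was called in any comparison with edgeR. In deficient against heterozygous 2 of 17 had an unadjusted p under 0.05, beside 11.9% of all genes. Pds5a, a regulator bound to the ring, was at 95.4 ± 8.78 CPM in deficient and 142 ± 28.1 in heterozygous libraries. The log2 fold change was -0.58 (SE 0.16, edgeR adjusted p = 0.346). Wildtype libraries had 80.5 ± 11.3 CPM of Pds5a, below the deficient mean, and heterozygous minus wildtype was 0.82 (SE 0.21, edgeR adjusted p = 0.247). Pttg1 is securin, which holds the cohesin-cleaving enzyme separase inactive. It was at 81.8 ± 9.85 CPM in deficient, 61.3 ± 13.7 in heterozygous and 78.1 ± 4.74 in wildtype libraries. For deficient minus heterozygous the log2 fold change of Pttg1 was 0.42 (SE 0.17, edgeR adjusted p = 0.392).

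The related ring complexes condensin and SMC5/6 were as even, with 16 of 17 genes tested, a mean log2 CPM of 6.91 to 7.17 and 0 called with edgeR. At an unadjusted p under 0.05, 1 of 16 passed in deficient against heterozygous, beside 11.9% of all genes. It was Ncapg, a condensin subunit, at 316 ± 8.03 against 271 ± 10.1 CPM (log2 fold change 0.22, SE 0.09, edgeR adjusted p = 0.404). Wildtype libraries had 302 ± 26.3 CPM of Ncapg. Nsmce1, of SMC5/6, was at 60.5 ± 3.91 CPM in deficient and 46.6 ± 12.2 in heterozygous libraries (edgeR adjusted p = 0.436), and at 62.2 ± 7.1 in wildtype libraries.

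The axis and synaptonemal complex genes, which build on meiotic cohesin, followed the same libraries. All 16 were tested, 0 were called with edgeR, and all 16 estimates were below 0 for deficient minus heterozygous (median log2 fold change -0.64), beside 55.1% of all genes. At an unadjusted p under 0.05 there were 2 of 16, beside 11.9% of all genes. For deficient minus wildtype only 9 of 16 were below 0 (median -0.019), beside 49.4% of all genes. For heterozygous minus wildtype all 16 were above 0 (median 0.65), whereas 47.4% of all genes were below 0. The mean log2 CPM of the 16 genes was lowest in heterozygous 1 (4.27) and deficient 3 (4.30) and highest in heterozygous 2 (6.47). Sycp2, an axis protein, was at 58.1 ± 26.6 CPM in deficient and 119 ± 61.1 in heterozygous libraries (edgeR adjusted p = 0.407). Terb2, which joins telomeres to the nuclear envelope, was at 21.9 ± 5.63 and 34.7 ± 11.8 CPM (edgeR adjusted p = 0.393). Wildtype libraries had 64.7 ± 2.03 CPM of Sycp2 and 25.6 ± 0.86 CPM of Terb2 (SD, n = 2).

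The 12 meiotic entry genes were likewise lowest in heterozygous 1 (4.23) and deficient 3 (4.38), with 1 of 12 at an unadjusted p under 0.05 in deficient against heterozygous, beside 11.9% of all genes, and 0 called with edgeR. Meiosin, a transcription factor of meiotic entry, was at 104 ± 50.0 CPM in deficient and 267 ± 189 CPM in heterozygous libraries (edgeR adjusted p = 0.411). Msh5, a crossover protein, was at 18.9 ± 10.3 and 44.3 ± 27.4 CPM (edgeR adjusted p = 0.432). Wildtype libraries had 160 ± 11.4 CPM of Meiosin and 19.5 ± 2.41 CPM of Msh5 (SD, n = 2). The 12 early germ cell genes ran the other way, highest in deficient 3 (7.10) and heterozygous 1 (6.93) and lowest in heterozygous 2 (5.26), with 0 called. Among them Nanos3, an RNA-binding protein of early germ cells, was at 12.7 ± 4.08 CPM in deficient, 7.68 ± 3.46 in heterozygous and 10.1 ± 3.09 in wildtype libraries. The part of this spread between libraries in the genotype estimates of the cohesin genes was not tested.

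No marker of other cells was called with edgeR, but the estimates in some lists lay to 1 side. All 7 macrophage markers were above 0 for deficient minus heterozygous, 6 of them at an unadjusted p under 0.05, beside 11.9% of all genes. All 5 tested red blood cell markers were below 0 for deficient minus wildtype (median log2 fold change -1.02) and minus fertile (median -0.73), and all 5 tested stromal markers for deficient minus wildtype (median -0.49), with 0 at an unadjusted p under 0.05 in each. The 7 macrophage markers summed to 19.4 to 30.2 TPM in deficient, 7.33 to 12.7 in heterozygous and 16.4 to 17.2 in wildtype libraries. Of them, Ptprc was listed at 0 in 1 library. C1qc and Fcer1g were at 2.15 ± 0.60 and 1.5 ± 0.42 CPM in deficient and 0.72 ± 0.19 and 0.43 ± 0.14 CPM in heterozygous libraries. The part of these markers in the estimates of the cohesin genes was not tested.

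The promoters of the members that moved together were read from RefSeq (GRCm38.p6), in windows of 280 bases, from 250 before to 30 after a start site. The table held a window for 7 of the 9 members and none for Rad21 and Stag2. Windows are shown for the 4 meiotic subunits and for Stag1, the general subunit whose window holds TTCCCGC, as those of Stag3 and Smc1b do. The motifs searched on both strands were TTCCCGC, the core bound by E2F factors including E2F6, CACGTG, the E-box, CCAAT, bound by NF-Y, and GGGCGG, bound by Sp factors. In other cells a noncanonical Polycomb complex that holds E2F6 and the E-box factors MGA and MAX is known to keep meiotic genes silent. Capitals mark a match on either strand.
Stag3: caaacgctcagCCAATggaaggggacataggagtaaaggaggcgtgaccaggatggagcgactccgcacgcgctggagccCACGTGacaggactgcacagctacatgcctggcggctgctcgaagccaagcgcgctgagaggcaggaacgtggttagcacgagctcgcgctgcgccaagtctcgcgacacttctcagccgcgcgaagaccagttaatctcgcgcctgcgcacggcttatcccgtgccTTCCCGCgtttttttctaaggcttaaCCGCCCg
Smc1b: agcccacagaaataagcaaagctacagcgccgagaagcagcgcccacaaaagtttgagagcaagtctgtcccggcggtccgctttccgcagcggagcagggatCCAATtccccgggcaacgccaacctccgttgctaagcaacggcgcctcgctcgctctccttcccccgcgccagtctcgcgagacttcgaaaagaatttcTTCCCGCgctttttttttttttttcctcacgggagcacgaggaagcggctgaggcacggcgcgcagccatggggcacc
Stag1: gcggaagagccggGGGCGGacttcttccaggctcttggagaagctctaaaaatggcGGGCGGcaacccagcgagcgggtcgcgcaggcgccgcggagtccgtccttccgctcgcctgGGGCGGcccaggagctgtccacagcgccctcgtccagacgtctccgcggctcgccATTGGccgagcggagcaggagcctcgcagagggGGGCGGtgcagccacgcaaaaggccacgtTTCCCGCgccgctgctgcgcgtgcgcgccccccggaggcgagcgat
Rec8: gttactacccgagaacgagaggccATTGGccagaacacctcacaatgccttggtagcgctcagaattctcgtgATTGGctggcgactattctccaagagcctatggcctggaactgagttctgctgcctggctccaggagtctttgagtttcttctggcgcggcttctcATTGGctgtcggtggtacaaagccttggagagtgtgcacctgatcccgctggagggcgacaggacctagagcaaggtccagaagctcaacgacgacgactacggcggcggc
Rad21l: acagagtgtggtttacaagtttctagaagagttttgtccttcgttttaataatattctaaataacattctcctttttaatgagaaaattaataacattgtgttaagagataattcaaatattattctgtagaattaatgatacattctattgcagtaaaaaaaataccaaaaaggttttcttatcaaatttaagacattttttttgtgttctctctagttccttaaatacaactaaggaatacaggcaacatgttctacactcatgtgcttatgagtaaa

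These windows lie at chr5:138280259-138280538 (plus strand) for Stag3, chr15:85131928-85132207 (minus) for Smc1b, chr9:100643198-100643477 (plus) for Stag1, chr14:55617916-55618195 (plus) for Rec8 and chr2:151668504-151668783 (minus) for Rad21l. TTCCCGC was found in the windows of Stag3 (first base at -3 from the start), Smc1b (-48) and Stag1 (-16), beside 4.3% of all 32851 windows of that length. In the same order these windows had 61.8%, 60.0% and 72.5% G and C, with 30, 28 and 38 CpG. The medians over all windows were 52.5% and 6, so the 4.3% comes from windows of other composition. CACGTG was found in that of Stag3 alone among the 7 (-170), beside 6.8% of windows, and both motifs together are in 0.414% of windows. CCAAT was found 3 times in the window of Rec8, on the minus strand, and once each in Stag3, Smc1b, Smc1a and Stag1, beside 36.1% of windows, and GGGCGG in Stag3, Smc1a, Smc3 and Stag1, beside 34.7%. The window of Rad21l held none of the 4 motifs, and had 26.4% G and C and 1 CpG, against medians of 52.5% and 6 over all windows. Stag3 and Smc1b share TTCCCGC with each other and with Stag1. The part of this motif in the levels of these genes was not tested. A match is a description of letters, and no binding was measured.

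Some reads could belong to overlapping genes, since the strand setting of the counting is not given in the sources used here. Smc1b overlaps Gm10923 on the other strand, Smc1a Gm15267, Stag2 Gm37564, and Stag1 several Gm genes on both strands. Rec8, Stag3, Rad21l, Rad21 and Smc3 overlap no gene of GENCODE M21.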

How the data were processed

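RNA sequencing of 10 libraries was analysed from the deposited tables. Per the submitters' processing notes, the tools were Trim Galore 0.5.0, FastQC 0.11.5, HISAT2 2.1.0, SAMtools 1.9, StringTie 1.3.3b, featureCounts (Subread 1.6.2) and DESeq2, with the build GRCm38. The strand setting and annotation release are not given in the sources used here. Whole-number read counts per gene make up the deposited count table, and the other deposited table holds StringTie's TPM values per library, per the file headers. The authors' table of comparisons holds, per the file headers, a mean normalised count signal, log2 fold changes with standard errors, a test score (stat) and p-values. It was used only for the values credited to it.

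Counts were tested with edgeR 4.0.16 in R 4.3.3 (TMM scaling, filterByExpr by genotype, 1 quasi-likelihood fit of 3 genotypes over 10 libraries, Benjamini-Hochberg over 20317 genes). The fertile group was the equally weighted mean of the heterozygous and wildtype groups in that fit. CPM used reads in tested genes. Count ratios added 0.5 to each count, TPM ratios 0.1, and correlations used log2 CPM with a prior count of 2 and 100000 permutations. The fit was also run on simulated counts drawn for each gene separately, with an outcome not reported here. Such counts lack the spread between libraries that many genes share in these data.

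Named genes are the 9 subunits and Taf4b, the 2 members of each list with the smallest unadjusted p in deficient against heterozygous where none was called, and the 3 genes closest to each meiotic subunit. Of the last, 1 gene is not reported here. Of these, supporting, stromal, endothelial and red blood cell genes are given by their summed levels. The members and lists were chosen with earlier results of these data known. Gene positions are from GENCODE M21. Alternatives were other scalings, filters and tools (limma 3.58.1, DESeq2 1.42.0), TPM in place of counts, a term for litter date or for replicate number, and leaving out libraries.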

Additional observations from a re-analysis of the deposited data

Results flagged for a closer look

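Of 28 groups of 4 libraries examined for a library far from the others (Dixon's criterion), 2 met it, and chance alone gives about 1 in 20. Smc1b in heterozygous 1 was at 333.1 CPM, below the other heterozygous libraries at 751 to 831. The log2 count ratio of Smc1b to Smc1a in heterozygous 1 was 0.8557, against 2.62 to 2.89 in the other heterozygous libraries. Both values belong to the same library and share the Smc1b count. Its cause was not tested.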

How the results depend on the processing

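No cohesin subunit was called in any comparison under any alternative, with 3 exceptions: Stag3 in deficient against heterozygous without heterozygous 1 or with limma voom and sample weights, and Smc1a in heterozygous against wildtype with that tool. For deficient against heterozygous the count of called genes was 3, and it was 6 with DESeq2 size factors, upper quartile scaling or a mean of at least 1 CPM, 14 without a low-count filter, 224 with DESeq2, 3012 with limma voom, 1 and 0 on TPM with pseudocounts 0.1 and 1, 0 with litter date, 99 without the 3 libraries low in Gm23935, and 0 to 344 leaving out 1 library. For deficient against wildtype (0) it was 1 without the filter, with DESeq2 and with limma voom, and 0 to 1 leaving out 1 library. For deficient against fertile (1) it was 8 with DESeq2, 0 with litter date and without the 3 libraries, and 0 to 1 leaving out 1 library. For heterozygous against wildtype (1) it was 268 without the filter, 480 with DESeq2, 1063 with limma voom, 0 on TPM and with litter date, 148 with only the groups compared, 186 without the 3 libraries and 0 to 0 leaving out 1 library.

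Replicate numbers do not pair the libraries (correlations of same-numbered libraries -0.421 to 0.382). With the replicate block 0 genes were called in deficient against heterozygous, deficient against fertile and heterozygous against wildtype, and Stag2 in deficient against heterozygous was at -0.0059.

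Signs near 0 changed. In deficient against heterozygous Stag2 was at -0.012 with library totals, -0.073 with limma voom, -0.11 and -0.10 on TPM and -0.13 with litter date, Stag1 at -0.088 and -0.087 on TPM, and Rad21 at -0.088 with litter date. In deficient against wildtype Stag1 was at 0.028 with litter date and 0.14 without the 3 libraries, and Rad21 at 0.29 without them. In deficient against fertile Rad21 was at 0.00084 with DESeq2 size factors, 0.00097 with DESeq2, 0.018 without the filter and 0.37 without the 3 libraries, and on TPM Smc1a was at -0.083 and -0.082 and Stag1 at -0.12 and -0.12. In heterozygous against wildtype Rec8 was at 0.060 with limma voom.

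Leaving out 1 library gave these ranges of log2 fold change. In deficient against heterozygous they were Stag2 -0.21 to 0.15, Rec8 -0.31 to 0.089 and Rad21 -0.26 to 0.90. In deficient against wildtype they were Rad21 -0.69 to 0.019, Stag1 -0.14 to 0.070, Smc1b -0.23 to 0.15, Rad21l -1.29 to 0.18 and Smc3 -0.0072 to 0.21. In deficient against fertile they were Rad21 -0.47 to 0.34, Smc1a -0.035 to 0.11 and Stag1 -0.0047 to 0.14. In heterozygous against wildtype they were Rec8 -0.37 to 0.0019 and Taf4b -0.078 to 0.34. Count ratios in deficient against heterozygous ranged from -1.09 to 0.10 (Rec8 to Rad21), -2.96 to 0.083 (Rad21l to Rad21), -0.86 to -0.46 (Stag3 to Stag1) and -0.57 to -0.29 (Stag3 to Stag2), and against fertile from -0.66 to 0.26 (Rec8 to Rad21) and -2.04 to 0.23 (Rad21l to Rad21). In counts per kilobase of exon union the log2 level ratios were 2.36 for Smc1b to Smc1a and 3.25 for Stag3 to Stag1, in place of 1.63 and 2.26. The causes were not tested.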

Other observations

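Pairs of subunits outside the planned relations were read from the matrix of r over 10 libraries, and those named here were chosen after their values were seen, so they carry no test. Rec8, the meiotic kleisin, and Stag2, a general X-linked STAG subunit, had r = 0.847, and r = 0.887 in the 7 libraries high in Gm23935. Smc1b and Rad21, subunits of different classes, had r = -0.903, and r = -0.965 in those 7 libraries, beyond the -0.796 of Smc1b with its own counterpart Smc1a. Stag1 and Rad21, both general, had r = 0.735 over 10 libraries and 0.365 in the 7. Smc3, common to meiotic and general rings, had r of -0.373 to -0.618 with the 4 meiotic subunits. The libraries share litters and genotypes, and the values describe these 10 libraries.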
